A study of Rattus norvegicus with 12 samples.

Results

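Proliferation and neural progenitor genes were followed in the preoptic area of newborn rats given zebularine or vehicle. The genes were Mki67, Pcna, Cdk1 and Ccna2, which mark dividing cells, and Nes and Sox2, which mark neural progenitors. They were chosen by name, each by the Ensembl identifier paired with its symbol when the set was drawn up, and all 6 were found among the 29516 identifiers of each file. The identifiers are ENSRNOG00000028137 for Mki67, ENSRNOG00000021264 for Pcna, ENSRNOG00000000632 for Cdk1, ENSRNOG00000015423 for Ccna2, ENSRNOG00000018681 for Nes and ENSRNOG00000012199 for Sox2. All 6 passed the filter on low values and were tested among 16310 genes.

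The study sequenced RNA from 12 libraries in 4 groups of 3, which were females on vehicle, females on zebularine, males on vehicle and males on zebularine. Zebularine, an analogue of cytidine, blocks the enzymes that methylate DNA (DNA methyltransferases, DNMT), and its vehicle was saline that held 0.1% DNMSO, as the labels spell the solvent. Both sexes were dosed on postnatal days 0 and 1 and sampled on postnatal day 2. The labels name no strain and no zebularine dose, and do not say whether a library is 1 animal or a pool, so p-values reflect how far these libraries spread, which could be technical spread.

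Dividing cells pass from a growth phase into DNA replication, then through a second gap phase into mitosis, and each step needs its own proteins. Pcna is the ring-shaped clamp that holds DNA polymerase on its template, and it also serves in DNA repair. Cyclin A2, made by Ccna2, binds and activates cyclin-dependent kinases in replication and on the way to mitosis, and Cdk1 is the kinase that drives entry into mitosis. Mki67 encodes Ki-67, a nuclear protein of cycling cells that coats mitotic chromosomes. Nestin, from Nes, is an intermediate filament of neural stem and progenitor cells that is also found in young blood vessels, and Sox2 is a transcription factor of neural stem and progenitor cells that is kept in many glia. Nucleoside inhibitors of DNMT act after they are built into DNA, which happens in cells that replicate it. In whole tissue, fewer cells of a type and less RNA per cell cannot be told apart.

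Levels are in RPKM, the reads of a gene model for each kilobase of its length, scaled by the size of the library, so that genes of different length can be compared. Reads assigned to genes ran from 15851598 to 30474857 per library. Zebularine female replicate 3, with 21372298 reads, stood apart from the rest: on the first principal component of all tested genes its score was 50.4, against -11.6 to 9.49 for the other 11. Log2 changes under zebularine in females and over both sexes are given with and without it, as are relations and spreads that it moved. In the tests below all 4 groups share 1 estimate of spread for each gene, so this library also moved the SE and p of male changes. Intervals are those of the fit to all 12 libraries. The files give identifiers with no symbols, and the table of RefSeq genes at hand matched 0 of them, so markers of the preoptic area, of neurons, glia, blood and vessels, and the other genes of the cell cycle and of progenitors, were not analysed here.

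Upstream sequence of the cell cycle genes is shown because genes of mitosis are known to share promoter elements. It is also shown because Mki67 and Cdk1 varied together over the libraries, as described further on. That relation did not pass without zebularine female replicate 3, and whether the motifs bear on it was not tested. RefSeq promoters of assembly GRCr8, from 250 bases before to 50 bases after the start of each gene, matched 5 of the 6 genes, all but Ccna2. Capitals mark CCAAT (the CCAAT box), TTTGAA (the cell cycle homology region, CHR) and the E2F core, searched as TTCGCGC and also as TTGGCGC and as TTCCCGC, all on both strands. The windows are chr1:199952544-199952843 on the minus strand for Mki67, chr20:19265043-19265342 on the plus strand for Cdk1 and chr3:139955771-139956070 on the minus strand for Pcna, printed 5′ to 3′ along the gene.
Mki67: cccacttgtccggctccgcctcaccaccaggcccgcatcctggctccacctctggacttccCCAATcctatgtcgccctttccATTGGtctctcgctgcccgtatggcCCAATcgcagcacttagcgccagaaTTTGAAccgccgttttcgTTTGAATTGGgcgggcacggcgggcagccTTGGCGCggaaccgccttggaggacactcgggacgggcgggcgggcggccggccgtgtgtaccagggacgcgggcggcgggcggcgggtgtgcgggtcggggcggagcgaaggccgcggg
Cdk1: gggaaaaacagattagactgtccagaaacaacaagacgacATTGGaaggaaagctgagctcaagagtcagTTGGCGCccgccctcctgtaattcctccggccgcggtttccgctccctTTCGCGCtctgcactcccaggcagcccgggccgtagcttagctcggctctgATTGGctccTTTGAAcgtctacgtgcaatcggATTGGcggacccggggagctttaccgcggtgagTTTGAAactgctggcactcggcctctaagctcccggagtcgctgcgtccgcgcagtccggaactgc
Pcna: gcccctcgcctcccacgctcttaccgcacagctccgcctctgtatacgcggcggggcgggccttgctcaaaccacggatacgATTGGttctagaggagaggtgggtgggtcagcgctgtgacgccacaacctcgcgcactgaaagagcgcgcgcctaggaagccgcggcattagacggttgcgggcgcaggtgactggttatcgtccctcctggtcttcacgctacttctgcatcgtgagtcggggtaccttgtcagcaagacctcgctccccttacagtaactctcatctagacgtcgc

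The Mki67 window held 4 CCAAT, 2 CHR and 1 E2F match, and 1 CHR match overlapped a CCAAT match on the other strand by 1 base. The Cdk1 window held 3 CCAAT, 2 CHR and 2 E2F matches. The Pcna window held 1 CCAAT match and neither of the others. Sox2 had 1 CCAAT and 1 CHR match, and Nes had none of the motifs. Of all 33469 promoters of this length in the table, 37.5% held CCAAT, 18.3% held CHR, 7.52% held the E2F core, and 7.41% held both CCAAT and CHR. The number of CG dinucleotides, the sites that DNMTs methylate, was 36 for Mki67, 29 for Pcna, 26 for Cdk1, 23 for Sox2 and 18 for Nes, against a median of 7 over all promoters. The share of promoters with fewer ran from 72.5% at the count of Nes to 94.6% at that of Mki67. No methylation was measured here, and a match of letters is not a binding site.

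The genes fell into levels that were far apart. Sox2 and Pcna were the most abundant, with means of 46.2 ± 5.05 and 45.8 ± 3.98 RPKM (SD, n = 12 libraries), above 88.8% and 88.7% of tested genes. Cdk1 followed at 9.05 ± 1.62 RPKM, Mki67 at 5.44 ± 1.11, Nes at 4.96 ± 1.19 and Ccna2 at 3.11 ± 0.729 (SD, n = 12). Pcna was above Cdk1, Cdk1 above Mki67 and Nes above Ccna2 in 12 of 12 libraries. The order of Sox2 and Pcna was not fixed, with Sox2 higher in 6 of 12, nor was that of Mki67 and Nes, with Mki67 higher in 9 of 12. The median ratio of Pcna to Cdk1 within a library was 4.92, and that of Cdk1 to Mki67 was 1.68.

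**Figure D1:**
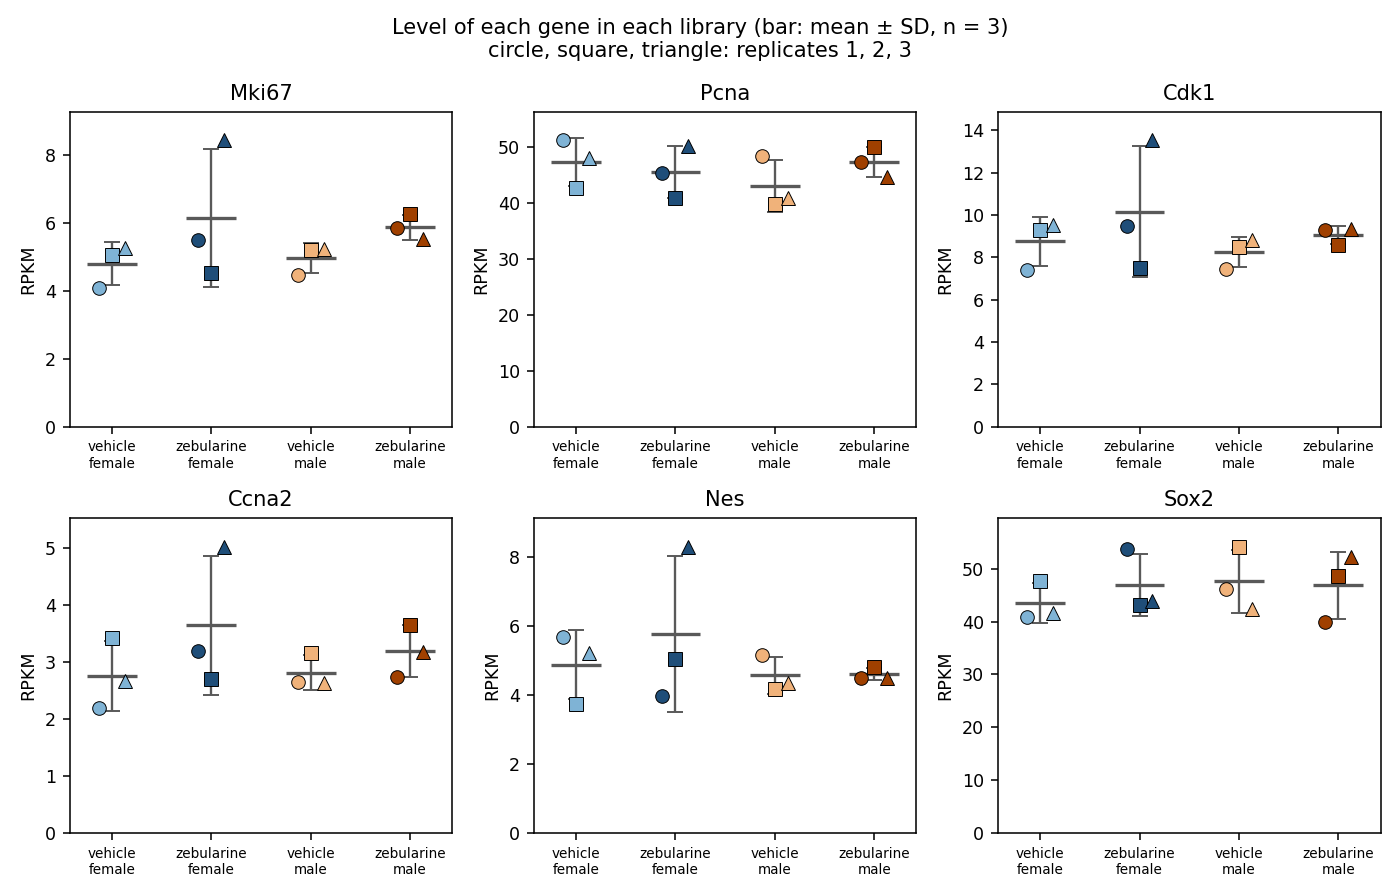
RPKM of each gene in each library, by group, on axes that start at 0. Points are libraries, horizontal lines are group means and error bars are the SD of 3 libraries. Zebularine female replicate 3 (dark blue triangle) is the highest of the 12 libraries for Mki67, Cdk1, Ccna2 and Nes.

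Taken over all libraries, counting error was below the spread for each gene, and came nearest to it for Cdk1 without zebularine female replicate 3. Within a group it was not always below. Among zebularine males Cdk1 had a coefficient of variation of 4.80%, with counting errors from 5.455% to 7.88%. Cdk1 had 161 to 343 reads per library and Ccna2 186 to 358. Pcna had 985 to 1795, Mki67 967 to 1757, Nes 855 to 1991 and Sox2 1788 to 3489. Counting error alone would give a coefficient of variation of 6.38% for Cdk1 and 6.52% for Ccna2, and from 2.00% to 2.87% for the other 4. The observed coefficient over the 12 libraries was 24.0% for Nes, 23.5% for Ccna2, 20.5% for Mki67, 17.9% for Cdk1, 10.9% for Sox2 and 8.70% for Pcna. Among tested genes within 1.25-fold of the same mean, the median was 11.8%, 15.4%, 11.3%, 9.14%, 6.84% and 6.82%, in that order. With all 12 libraries, between 11.1% (at the level of Cdk1) and 28.6% (at the level of Pcna) of those genes varied more than the member did. For 4 of the 6 the spread was over 1.5 times smaller without zebularine female replicate 3. Without that library, an alternative chosen after seeing the data, the coefficient was 12.7% for Nes, 14.5% for Ccna2, 12.2% for Mki67 and 9.75% for Cdk1, beside medians of 11.4%, 14.4%, 10.7% and 9.06% for genes of the same level, of which 39.8% to 49.5% varied more. Sox2 and Pcna varied as before, at 11.3% and 8.64%, beside medians of 6.73% at both levels.

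Pcna, the replication clamp, was abundant in every group. It stood at 51.2, 42.7 and 48.1 RPKM in vehicle females, and at 45.4, 40.9 and 50.1 in zebularine females. Vehicle males had 48.3, 39.8 and 40.9 RPKM, and zebularine males 47.3, 49.95 and 44.7. The groups overlapped in both sexes, and the highest library of the 12 was 1.29-fold above the lowest. The log2 change under zebularine, on the log2(RPKM + 0.5) scale used for all changes here, was -0.06 ± 0.10 (SE) in females and 0.14 ± 0.10 in males.

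Ccna2, which makes cyclin A2, was the least abundant of the 6. Its levels were 2.20, 3.42 and 2.67 RPKM in vehicle females, and 3.20, 2.71 and 5.03 RPKM in zebularine females. In vehicle males they were 2.66, 3.17 and 2.63 RPKM, and in zebularine males 2.75, 3.66 and 3.18 RPKM. Only replicate 3 of the treated females lay above the vehicle range, and the male groups overlapped. The log2 change was 0.32 ± 0.20 (SE) in females and 0.15 ± 0.20 in males.

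Cdk1, the kinase of mitotic entry, stood at 7.42, 9.29 and 9.53 RPKM in vehicle females and 9.46, 7.50 and 13.5 RPKM in zebularine females. Vehicle males had 7.43, 8.50 and 8.81 RPKM, and zebularine males 9.29, 8.56 and 9.33. In males 2 of the 3 treated libraries lay above every vehicle library and the third lay within the vehicle range. The log2 change was 0.17 ± 0.17 (SE) in females and 0.13 ± 0.17 in males.

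Mki67 was the 1 gene of the 6 whose treated and vehicle libraries did not overlap in a sex. Male values were 4.45, 5.18 and 5.23 RPKM under vehicle and 5.84, 6.25 and 5.51 RPKM under zebularine. In females they were 4.08, 5.06 and 5.25 RPKM under vehicle and 5.50, 4.52 and 8.42 RPKM under zebularine, with overlap. The male groups were separated in this direction for 8.36% of all tested genes, so such a gap was not rare, and 14.3% were separated in either direction. The log2 change was 0.22 ± 0.18 (SE) in males and 0.29 ± 0.18 in females.

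Nes, the progenitor filament, stood at 5.68, 3.75 and 5.22 RPKM in vehicle females and at 3.96, 5.05 and 8.29 RPKM in zebularine females. Vehicle males had 5.17, 4.17 and 4.36 RPKM, and zebularine males 4.50, 4.80 and 4.51. The treated males lay inside the range of the vehicle males, with an SD of 0.171 RPKM against 0.529 under vehicle, while the treated females ran from within the vehicle range to above it. The log2 change was 0.18 ± 0.22 (SE) in females and 0.02 ± 0.22 in males.

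Sox2, the progenitor transcription factor, stood at 40.9, 47.7 and 41.7 RPKM in vehicle females and 53.6, 43.1 and 43.8 in zebularine females. Vehicle males had 46.1, 54.1 and 42.4 RPKM, and zebularine males 39.8, 48.6 and 52.2. Both the lowest and the highest library of the 12 were male, the lowest treated and the highest untreated, and the groups overlapped in both sexes. The log2 change was 0.10 ± 0.12 (SE) in females and -0.02 ± 0.12 in males.

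Zebularine was compared with vehicle over both sexes, with 6 libraries on each side, to ask whether inhibition of DNMT changed these genes. None of the 6 passed by limma (adjusted p from 0.667 to 0.930), where 0.405% of all tested genes passed. At an unadjusted p under 0.05 the count was also 0 of 6, against 7.56% of tested genes, and limma-voom on reads recovered from the RPKM values gave 0 of 6 on both counts. All 6 log2 changes were above 0, as were 52.1% of those of all tested genes. Their median was 0.12, and the median of all tested genes was 0.0051. Mki67 had the smallest p of the 6 (limma, adjusted p = 0.667), with a log2 change of 0.26 ± 0.13 (SE), and 9.66% of tested genes had a smaller one.

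The intervals give, for each gene alone, the sizes of change that the fit to all 12 libraries left possible. They rest on how far these libraries spread, which could be technical spread. As a fold on the RPKM + 0.5 scale, the 95% interval of the effect over both sexes ran from 0.987 to 1.45 for Mki67, from 0.9496 to 1.46 for Ccna2, and from 0.924 to 1.34 for Cdk1. It ran from 0.847 to 1.35 for Nes, from 0.900 to 1.18 for Sox2, and from 0.927 to 1.14 for Pcna. Pcna and Sox2, the abundant genes, thus had the narrowest bounds, and the upper bounds of the other 4 ran from 1.34 to 1.46. Single libraries moved these bounds. For Mki67 the log2 change over both sexes, 0.26 ± 0.13 (SE), was 0.14 ± 0.084 without zebularine female replicate 3. It was 0.35 ± 0.11 without zebularine female replicate 2.

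**Figure D2:**
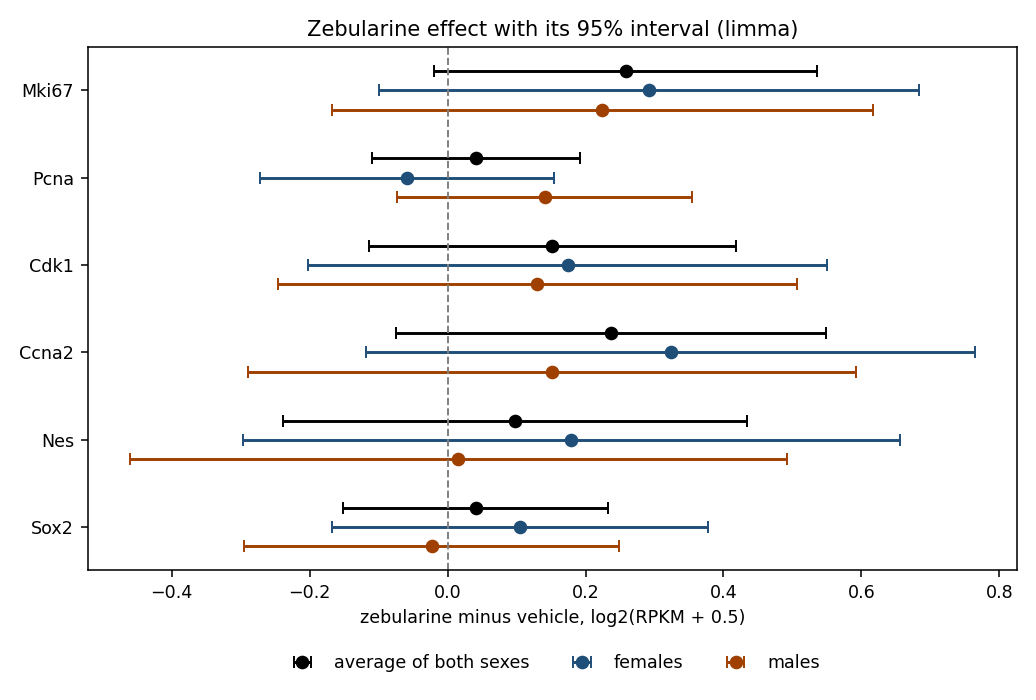
Zebularine minus vehicle on the log2(RPKM + 0.5) scale for each gene, over both sexes (black), in females (blue) and in males (brown). Points are limma estimates from 12 libraries and bars their 95% intervals. Every interval holds 0, and that of Mki67 over both sexes comes closest to excluding it, from -0.019 to 0.54.

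Within females, none of the 6 genes passed by limma (adjusted p = 1.00 for each), where 0.0429% of all tested genes passed, and none had an unadjusted p under 0.05, against 5.40% of tested genes. Limma-voom gave 0 of 6 on both counts. The groups overlapped for all 6, where 9.21% of tested genes had groups that did not. Zebularine female replicate 3, the library that stood apart, moved most of the female changes. It lay above the mean of the other 2 treated females by 1.77-fold for Nes, 1.62-fold for Mki67, 1.604-fold for Ccna2 and 1.57-fold for Cdk1. It lay above them by 1.16-fold for Pcna and at 0.912 of their level for Sox2. The share of tested genes that lay farther from the other treated females in that library was 6.29% for Nes, 8.25% for Mki67, 8.60% for Ccna2 and 9.34% for Cdk1, and it was 35.9% for Pcna and 53.2% for Sox2.

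Without that library the female log2 change was 0.06 for Mki67 in place of 0.29, 0.10 for Ccna2 in place of 0.32, -0.04 for Cdk1 in place of 0.17 and -0.09 for Nes in place of 0.18. For Pcna it was -0.13 in place of -0.06, and for Sox2 0.15 in place of 0.10. Other female libraries moved the changes as well. Without vehicle female replicate 1 the female log2 change was 0.19 for Mki67, 0.19 for Ccna2 and 0.066 for Cdk1. Without vehicle female replicate 2 that of Nes was 0.018, and without zebularine female replicate 1 that of Sox2 was 0.0045. Over both sexes the log2 changes without zebularine female replicate 3 were 0.14 for Mki67, 0.12 for Ccna2, 0.04 for Cdk1, -0.04 for Nes, 0.0049 for Pcna and 0.06 for Sox2. None of the 6 passed by limma without it, in females or over both sexes. The opposite omission also moved the values: without zebularine female replicate 2, the lowest treated female for Mki67, Cdk1 and Ccna2, those 3 genes had an unadjusted limma p under 0.05 both in females and over both sexes, with log2 changes over both sexes of 0.35, 0.25 and 0.32. None of them passed after adjustment (limma, adjusted p from 0.374 to 0.668).

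**Figure D3:**
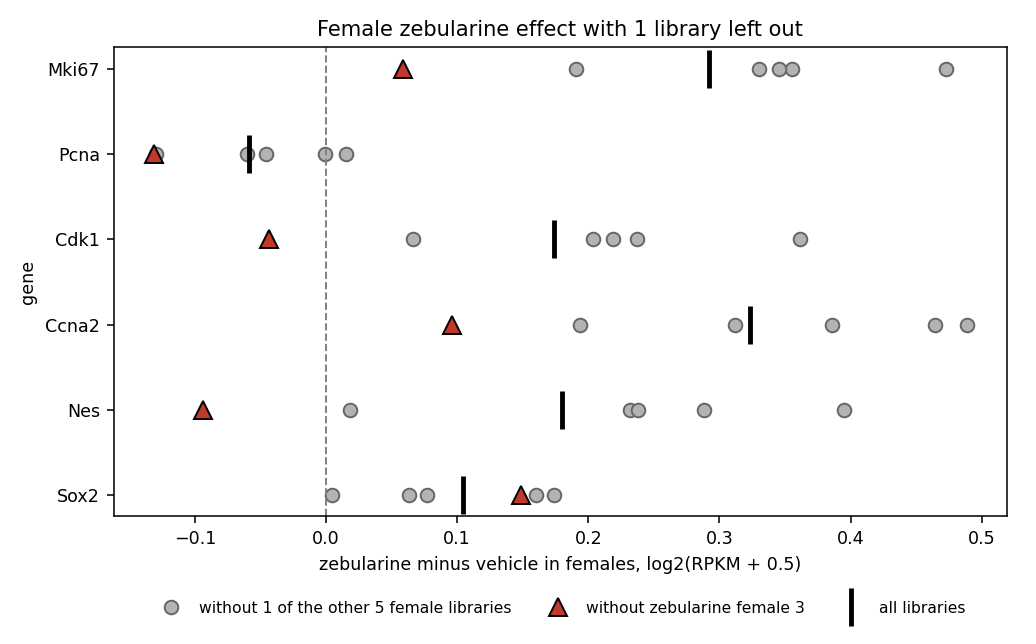
Female zebularine effect on the log2(RPKM + 0.5) scale for each gene with all libraries (black bar), without zebularine female replicate 3 (red triangle) and without each of the other 5 female libraries (grey). Leaving out replicate 3 gives the lowest value for Mki67, Pcna, Cdk1, Ccna2 and Nes.

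Within males, none of the 6 genes passed by limma (adjusted p from 0.716 to 0.993), and none of all tested genes did (0.00%). None of the 6 had an unadjusted p under 0.05, against 7.58% of tested genes, and limma-voom gave 0 of 6 on both counts. The largest male log2 change was that of Mki67, whose groups did not overlap, at 0.22 with a 95% interval from -0.17 to 0.62 (limma, adjusted p = 0.749). Pcna had the smallest p of the 6 in males, with a log2 change of 0.14 (limma, adjusted p = 0.716). Without vehicle male replicate 1, its highest vehicle male library, the change was 0.23 and its unadjusted p fell below 0.05, which did not pass (limma, adjusted p = 0.830).

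The effects in the 2 sexes were then compared directly, since the study treated males and females. No gene of the 6 passed by limma for the male minus female difference of the zebularine effect (adjusted p from 0.976 to 0.993), where 0.00% of tested genes passed. None had an unadjusted p under 0.05, against 4.05% of tested genes, and limma-voom gave 0 of 6 on both counts. Pcna had the smallest p (limma, adjusted p = 0.976) and was the 1 gene with a positive difference, 0.20 with a 95% interval from -0.10 to 0.50. The intervals of Nes, from -0.84 to 0.51, and of Ccna2, from -0.80 to 0.45, were the widest of the 6. The difference changed sign without zebularine female replicate 3 for Mki67, from -0.07 to 0.17, for Cdk1, from -0.04 to 0.17, for Ccna2, from -0.17 to 0.06, and for Nes, from -0.16 to 0.11.

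Vehicle males and females were compared for the sex difference without treatment. None of the 6 genes passed by limma (adjusted p = 1.00 for each), where 0.0123% of tested genes passed, and none had an unadjusted p under 0.05, against 2.08%. Limma-voom gave 0 of 6 on both counts. The male minus female log2 difference was -0.14 ± 0.10 (SE) for Pcna, 0.13 ± 0.12 for Sox2, -0.08 ± 0.17 for Cdk1, -0.07 ± 0.22 for Nes, 0.05 ± 0.18 for Mki67 and 0.04 ± 0.20 for Ccna2. The groups overlapped for all 6. Without vehicle male replicate 1 the difference of Pcna was -0.22 with an unadjusted p below 0.05, and it did not pass (limma, adjusted p = 1.00). Of all tested genes, 6.63% had groups that did not overlap.

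Under zebularine the sexes were also not separated for any of the 6. None passed by limma (adjusted p from 0.709 to 0.997), where 0.0307% of tested genes passed, none had an unadjusted p under 0.05, against 11.1%, and limma-voom gave 0 of 6 on both counts. Nes had the largest male minus female difference, -0.24 ± 0.22 (SE), and with zebularine female replicate 3 left out it was 0.04. Leaving out replicate 1 of that group instead, its lowest treated female, gave -0.45 with an unadjusted p below 0.05, and it did not pass (limma, adjusted p = 0.444). The groups overlapped for all 6, where 15.4% of tested genes had groups that did not.

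How the 6 genes varied among themselves was described by the 15 pairwise correlations of log2(RPKM + 0.5) over the 12 libraries. Pairs among Mki67, Cdk1 and Ccna2 moved together, and those 3 pairs were the ones to pass. Mki67 and Cdk1 had r = 0.91 (permutation p = 0.00046, adjusted over the 15 pairs p = 0.00503), Mki67 and Ccna2 r = 0.88 (permutation p = 0.00067, adjusted p = 0.00503), and Cdk1 and Ccna2 r = 0.81 (permutation p = 0.00509, adjusted p = 0.0255). By rank the same pairs had rho of 0.76, 0.69 and 0.55 (permutation adjusted p = 0.0695, 0.0774 and 0.214), and none of the 15 passed. Of the tested genes, 20 followed Mki67 more closely than Cdk1 did, which is 0.123%, and 58 more closely than Ccna2 did, which is 0.356%. Without zebularine female replicate 3 these counts were 396 genes, or 2.43%, and 630 genes, or 3.86%. The ratio of Mki67 to Cdk1 was 0.550, 0.544 and 0.551 in vehicle females, the group with the smallest spread. Counting error of Cdk1 alone was 5.78% to 6.68% in those libraries, so the reads cannot fix the ratio that closely. It was 0.629, 0.730 and 0.590 in zebularine males, the group with the largest spread, where 0.730 rests on 161 Cdk1 reads (counting error 7.88%). Over the 4 groups the mean ratio ran from 0.549 in vehicle females to 0.650 in zebularine males, a difference that was not tested.

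Fewer pairs passed without the library that stood apart, and without vehicle female replicate 1, which was the lowest of the 12 for Mki67, Cdk1 and Ccna2. Without zebularine female replicate 3, r was 0.76 for Mki67 and Cdk1, 0.71 for Mki67 and Ccna2, and 0.51 for Cdk1 and Ccna2 (permutation adjusted p = 0.0707, 0.0707 and 0.198), and none of the 15 pairs passed. With vehicle female replicate 1 left out instead, 2 of the 15 pairs passed. Zebularine female replicate 3 and vehicle female replicate 1 were the 2 libraries farthest from the median of Mki67 and of Cdk1. Without both, r was 0.66, 0.54 and 0.30 (unadjusted permutation p = 0.0358, 0.112 and 0.398). None of the 15 pairs passed without the 2 farthest libraries. Leaving out the extremes of a gene narrows its range, which can lower r, so these values cannot tell whether a relation rests on those libraries. With group means subtracted, r was 0.95, 0.86 and 0.78 (exact permutation within groups, p = 0.0139, 0.0208 and 0.0710, adjusted p = 0.156, 0.156 and 0.266). With group means subtracted and zebularine female replicate 3 left out, r was 0.85, 0.66 and 0.48 (exact permutation within groups, p = 0.0417, 0.104 and 0.273).

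**Figure D4:**
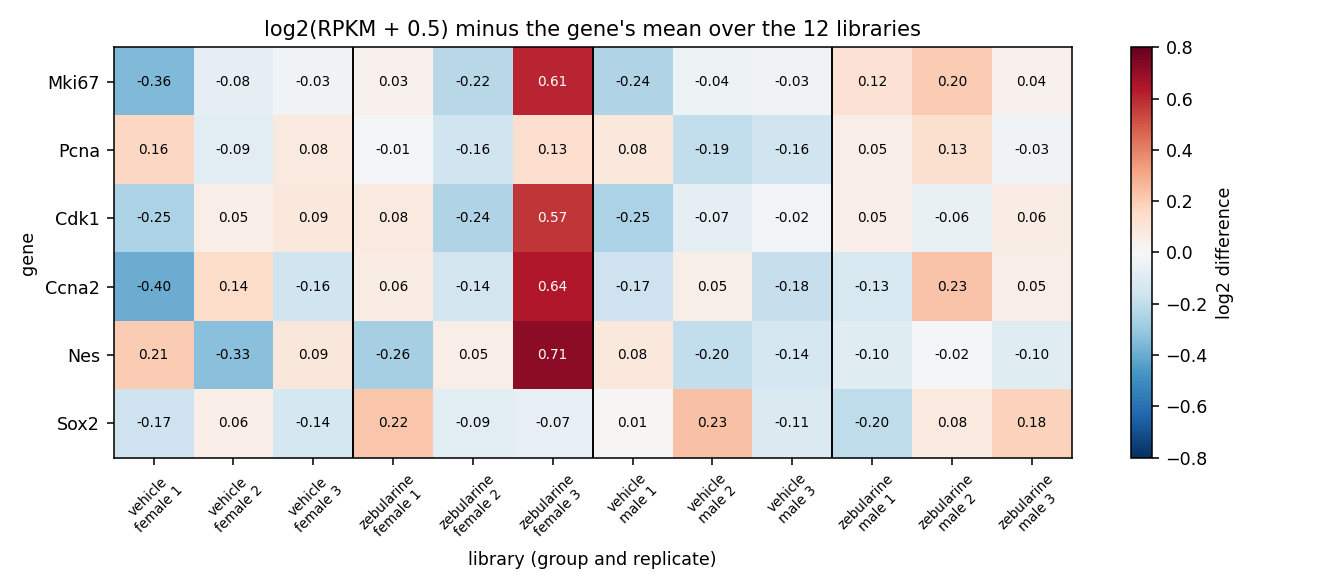
Difference of log2(RPKM + 0.5) from each gene's own mean over the 12 libraries, with genes as rows and libraries as columns in 4 groups. Red is above and blue below the mean. Mki67, Cdk1, Ccna2 and Nes are high together in zebularine female replicate 3, at 0.57 to 0.71, and vehicle female replicate 1 is low for the first 3 but not for Pcna or Nes.

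Pcna did not follow the other cell cycle genes. Its r was 0.26 with Mki67, 0.21 with Cdk1 and 0.12 with Ccna2 (permutation adjusted p = 0.601, 0.693 and 0.837), and without zebularine female replicate 3 these were -0.0065, -0.12 and -0.22. In vehicle female replicate 1 Pcna was at its highest of the 12 libraries, while Mki67, Cdk1 and Ccna2 were at their lowest. Pcna instead came nearest to Nes, with r = 0.59 and rho = 0.73 (unadjusted permutation p = 0.0303 and 0.00927, adjusted p = 0.114 and 0.0695), which did not pass. That value was the same to 2 digits without zebularine female replicate 3 (r = 0.59) and was 0.56 without the 2 libraries farthest from the median of Pcna.

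Nes and Sox2, the progenitor genes, did not rise and fall together. Their r was -0.44 (permutation adjusted p = 0.320), and -0.58 without zebularine female replicate 3 (permutation adjusted p = 0.140). The sign of Nes against the mitotic genes depended on that library. With all 12 libraries r was 0.45 with Mki67, 0.45 with Cdk1 and 0.37 with Ccna2. Without it r was -0.50, -0.64 and -0.68 (permutation adjusted p = 0.198, 0.109 and 0.0806). Sox2 and Ccna2 had r = 0.37 with all libraries and 0.73 without it (permutation adjusted p = 0.412 and 0.0707). None of these passed.

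**Figure D5:**
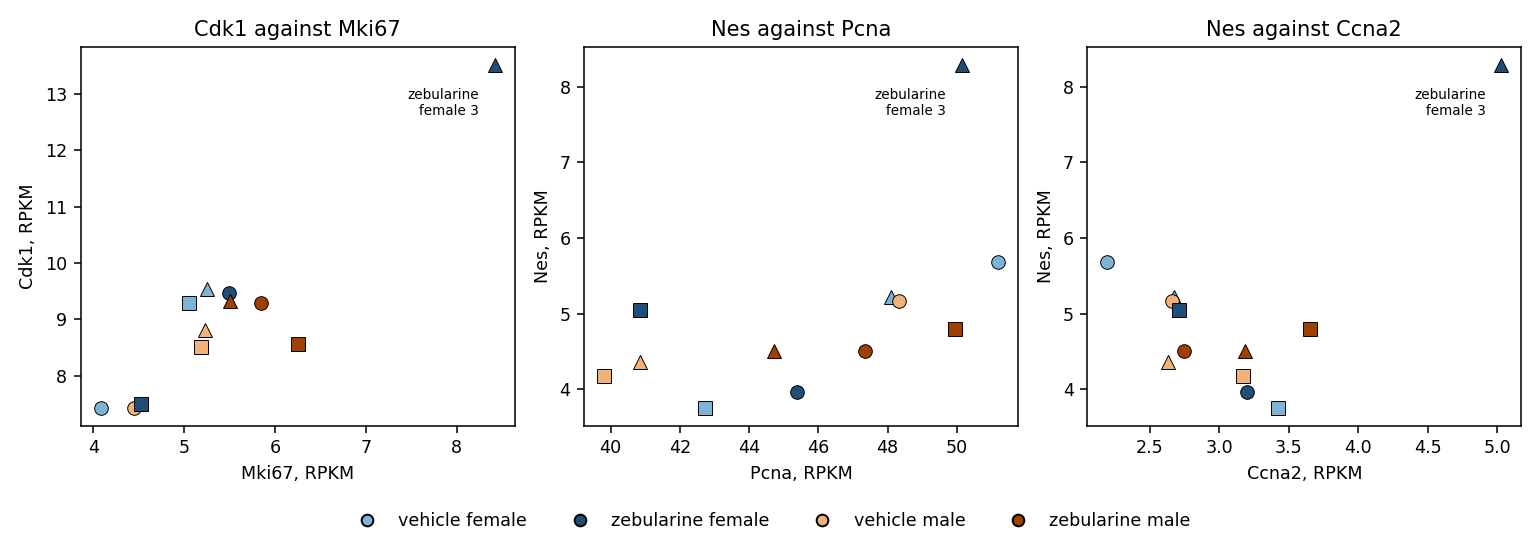
RPKM of 2 genes against each other in the 12 libraries, for Cdk1 against Mki67, Nes against Pcna and Nes against Ccna2. Colours are groups, and circle, square and triangle are replicates 1, 2 and 3. In the right panel zebularine female replicate 3 lies far above a set of 11 libraries in which Nes is lower where Ccna2 is higher.

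The tested genes most like each set over the 12 libraries were found by correlation with the mean standardised profile of the set, among 14365 genes with a mean of at least 1 RPKM. For the cell cycle genes they were ENSRNOG00000032778 (r = 0.96, mean 2.84 RPKM) and ENSRNOG00000038035 (r = 0.95, mean 2.74 RPKM), with r = 0.94 and 0.87 without zebularine female replicate 3. For Nes and Sox2 they were ENSRNOG00000017695 (r = 0.92, mean 204 RPKM) and ENSRNOG00000038574 (r = 0.90, mean 1.91 RPKM), with r = 0.85 and 0.82 without it. Nes and Sox2, with r = -0.44 between them, each followed their joint profile at r = 0.53. With all 12 libraries these 2 identifiers were close to the mean of both rather than to either gene. ENSRNOG00000017695 had r = 0.65 with Nes and 0.32 with Sox2, and ENSRNOG00000038574 had r = 0.55 and 0.40. Without zebularine female replicate 3 the r with Nes was 0.22 and -0.021, and the r with Sox2 was 0.57 and 0.68. Both identifiers were then nearer to Sox2 than to Nes. Pcna, itself part of the cell cycle profile, followed it at r = 0.49, and at r = 0.24 without zebularine female replicate 3. All 4 identifiers were highest in that library. An r above 0.8 was found for 287 genes with the cell cycle profile and for 39 with the progenitor profile, and for 208 and 21 without zebularine female replicate 3. The libraries in these correlations share their depth and their groups with every gene compared, and the files give no symbols for these identifiers.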

How the data were processed

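The authors deposited RPKM, 1 file per library, for 29516 Ensembl identifiers. RNA was extracted with Trizol and libraries made by Illumina procedures, per the labels' protocols, and TopHat is named in the submitters' processing notes. The sources used here do not give the counter, build, annotation or strand setting, so reads of overlapping or near-identical genes may be shared. RPKM steps gave whole reads for all 23427 genes above 0.

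Genes were kept at 0.5 RPKM or more in 3 or more libraries, and log2(RPKM + 0.5) was fitted with limma 3.58.1 (R 4.3.3, eBayes with trend) as 4 group means. All 6 contrasts were tested two-sided, and p was adjusted (Benjamini-Hochberg) over 16310 genes, with a threshold of 0.05. Correlations used 100000 permutations. The script was tested on simulated data. Groups come from sample titles. The labels give no batch. Same-numbered replicates did not deviate together, with r from -0.298 to 0.295, and the main model has no block. The replicate numbers may only count libraries within a group, so this cannot exclude a pairing. The file names hold another number, which the labels do not explain. Libraries that share it had r from -0.292 to 0.295, and it was used as an alternative block. All 6 genes are named by rule, with the 2 genes most like each set. The members and lists were chosen with earlier results of these data known. The lists of other pathway genes and cell type markers were not analysed here. Alternatives are in the closing section. Tables and figures came from matplotlib 3.10.9, numpy 2.4.6 and pandas 2.3.3 under Python 3.11.15.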

Additional observations from a re-analysis of the deposited data

How the results depend on the processing

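In none of the 6 comparisons did any of the 6 genes pass by limma under the alternatives run: quantile normalization, median-ratio scaling, a filter of 1 RPKM or no filter, pseudocounts of 0.1 and 1, robust eBayes, array weights, limma-voom on recovered reads, only the compared groups, 2 kinds of block, and leaving out each library. Filters, robust eBayes, fits of only the compared groups and the omission of a library outside the contrast leave a log2 change as it was by construction. They can still change its SE and p. Of the 540 recomputed changes whose value moved, 490 kept their sign and 50 did not, and none passed. With the replicate number as a block, 0 of 6 genes passed in every comparison, and the log2 changes are those of the fit without it by construction (Mki67 over both sexes at 0.258), since the block is balanced over the groups. The count over all tested genes for both sexes was 9 in place of 66. With a block on the number in the file names that count was 6. In that block the numbers of vehicle male replicate 1 and zebularine female replicate 1 occur in no other library, so both drop out of the contrasts. The other numbers are not balanced over the groups, so values under this block cannot be read as the effect of a batch. In males Mki67 was at 0.058 under it in place of 0.224, and Pcna at 0.212 in place of 0.141.

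Directions turned as follows, each on the log2 scale, and the cause was not tested. With array weights, Pcna was at -0.0047 over both sexes. In males Nes was at -0.025 and Sox2 at 0.087. For the difference of effects Mki67 was at 0.092, Cdk1 at 0.151 and Ccna2 at 0.037. Between the vehicle sexes Mki67 was at -0.0036 and Ccna2 at -0.025. Between the treated sexes Mki67 was at 0.088, Cdk1 at 0.027, Ccna2 at 0.012 and Sox2 at 0.040. With a block on the number in the file names, Sox2 was at -0.046 over both sexes and -0.013 in females, Cdk1 at -0.0051 and Ccna2 at -0.032 in males, Cdk1 at 0.060 between the vehicle sexes and Sox2 at 0.116 between the treated sexes. Between the treated sexes Sox2 was at 0.013 with median-ratio scaling and Mki67 at 0.0096 with quantile normalization.

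Leaving out 1 library gave ranges across 0. Over both sexes these were -0.039 to 0.205 for Nes and -0.0093 to 0.096 for Sox2. In females they were -0.043 to 0.362 for Cdk1, -0.094 to 0.395 for Nes and -0.131 to 0.015 for Pcna. In males they were -0.040 to 0.099 for Nes and -0.105 to 0.088 for Sox2. For the difference of effects they were -0.248 to 0.166 for Mki67, -0.232 to 0.173 for Cdk1, -0.337 to 0.055 for Ccna2 and -0.380 to 0.109 for Nes. Between the vehicle sexes they were -0.055 to 0.115 for Mki67, -0.091 to 0.179 for Ccna2 and -0.235 to 0.035 for Nes. Between the treated sexes they were -0.202 to 0.213 for Mki67, -0.0126 to 0.133 for Pcna, -0.307 to 0.098 for Cdk1, -0.299 to 0.093 for Ccna2, -0.454 to 0.035 for Nes and -0.083 to 0.109 for Sox2.

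The count of pairs that passed was 3, and 0 with group means subtracted or without the 2 farthest libraries, and from 0 to 3 without 1 library. Without the 2 farthest libraries r was -0.25 for Mki67 and Nes, -0.51 for Cdk1 and Nes, and -0.53 for Ccna2 and Nes. With group means subtracted r was -0.014 for Mki67 and Sox2. Without 1 library r ran from -0.68 to 0.56 for Ccna2 and Nes, -0.64 to 0.59 for Cdk1 and Nes, -0.50 to 0.65 for Mki67 and Nes, -0.10 to 0.25 for Cdk1 and Sox2, -0.0065 to 0.55 for Mki67 and Pcna, -0.082 to 0.31 for Mki67 and Sox2, -0.22 to 0.39 for Pcna and Ccna2, and -0.12 to 0.42 for Pcna and Cdk1.

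With 3 libraries in a group, a gene of median precision had a 95% interval of 1.19-fold to either side within a sex and 1.13-fold over both sexes. Over all tested genes, the number that passed over both sexes ran from 6 to 111 across the alternatives.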
